A study of Arabidopsis thaliana with 16 samples.

Results

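The genes described here are 34 nuclear genes of light harvesting, carbon fixation and chlorophyll synthesis in seedlings of the plant Arabidopsis thaliana. They were chosen by locus code. They are the 21 LHCA and LHCB genes, RBCS1A, RBCS1B, RBCS2B and RBCS3B, RCA, GLK1, GLK2, PORA, PORB, PORC, CHLH, GUN4 and HEMA1. These are 34 of the 27416 genes in the deposited count table, and all 34 were among the 18419 genes with enough counts to be tested.

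The study put whole seedlings on agar plates in ethanol vapour, a gas treatment, under long days. EtOH_3d seedlings received ethanol for 3 d from an age of 11 d, and EtOH_1d seedlings received it for 1 d from an age of 13 d, so that by these numbers both exposures ended at 14 d. The control groups are moc_3d and moc_1d, and the labels do not spell out moc. The labels name no genotype, accession or transgene, and no cold step, although the series title names freezing. A column labelled moc_1d replicate 1 and a column labelled moc_3d replicate 3 hold the same counts for all 27416 genes, so both were left out. This leaves 4 libraries in EtOH_3d, 3 in moc_3d, 4 in EtOH_1d and 3 in moc_1d. The labels do not say whether the replicates of a group were grown or harvested apart, and the p-values reflect no more than the spread among these libraries, which may be technical.

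Light-harvesting proteins bind chlorophyll and pass excitation energy to the photosystems: LHCA proteins form the antenna of photosystem I and LHCB proteins that of photosystem II. Rubisco fixes carbon dioxide, with a large subunit made in the chloroplast and small subunits imported from nuclear RBCS genes. These proteins are among the most abundant in leaves, their nuclear genes are induced by light, and many are activated by the transcription factors GLK1 and GLK2, while sugars and plastid damage are known to repress them.

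Libraries held 3695511 to 15943927 counts, and levels are given in CPM, the count relative to the library's total after scaling by the TMM method. On that scale 3 counts correspond to 0.188 to 0.812 CPM, depending on the library. The 34 genes together took 14.2% to 14.9% of counts in EtOH_3d, 14.6% to 14.9% in moc_3d, 14.2% to 15.0% in EtOH_1d and 14.3% to 14.8% in moc_1d. The groups overlapped, and their means lay at 14.6%, 14.7%, 14.6% and 14.6% in that order. LHCB genes took 7.51% to 8.40% of counts over all 14 libraries, RBCS genes 3.69% to 4.26% and LHCA genes 2.23% to 2.43%. In such bulk samples, fewer green cells and less RNA per cell cannot be told apart. The whole seedling also holds roots, which are not green. Of 16 root marker genes 15 were tested, none was at 0 in any group, and their summed level was 1361 to 1463 CPM in EtOH_3d, 1449 to 1476 CPM in moc_3d, 1371 to 1708 CPM in EtOH_1d and 1424 to 1634 CPM in moc_1d. Most of this sum is a single gene, PYK10. Its mean was 1115 CPM in EtOH_3d, 1188 CPM in moc_3d, 1242 CPM in EtOH_1d and 1243 CPM in moc_1d. Counts on chloroplast-encoded genes made up 1.53% to 1.92% in EtOH_3d against 1.08% to 1.5% in moc_3d, with no overlap, and 1.53% to 2.28% in EtOH_1d against 1.59% to 1.83% in moc_1d, with overlap. What part these differences have in the results for nuclear genes was not tested.

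Per length of the longest annotated transcript, RBCS1A had the highest level of the 34 genes at 18280 CPM per kb, averaged over the 14 libraries. LHCB1.3 followed at 13630, RBCS3B at 9633, LHCB1.5 at 9426 and LHCB1.2 at 7067 CPM per kb. The lowest levels were those of LHCB7 at 11.0 CPM per kb, LHCB4.3 at 13.0, PORA at 18.1, GLK1 at 35.6 and GLK2 at 61.9. The libraries were made by Lasy-Seq, in which reads come mostly from the 3' ends of transcripts, so counts need not grow with length. Most of the genes varied little. The SD between libraries of a group, on the log2 scale, had a median of 0.07 over the 34 genes. It was 0.06 over the 21 light-harvesting genes and 0.20 over all genes tested, which were not matched for level. LHCB4.3 at 0.26 and LHCB7 at 0.22, both at low counts, had the widest spread, and LHCB4.1 the narrowest at 0.04.

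**Figure D1:**
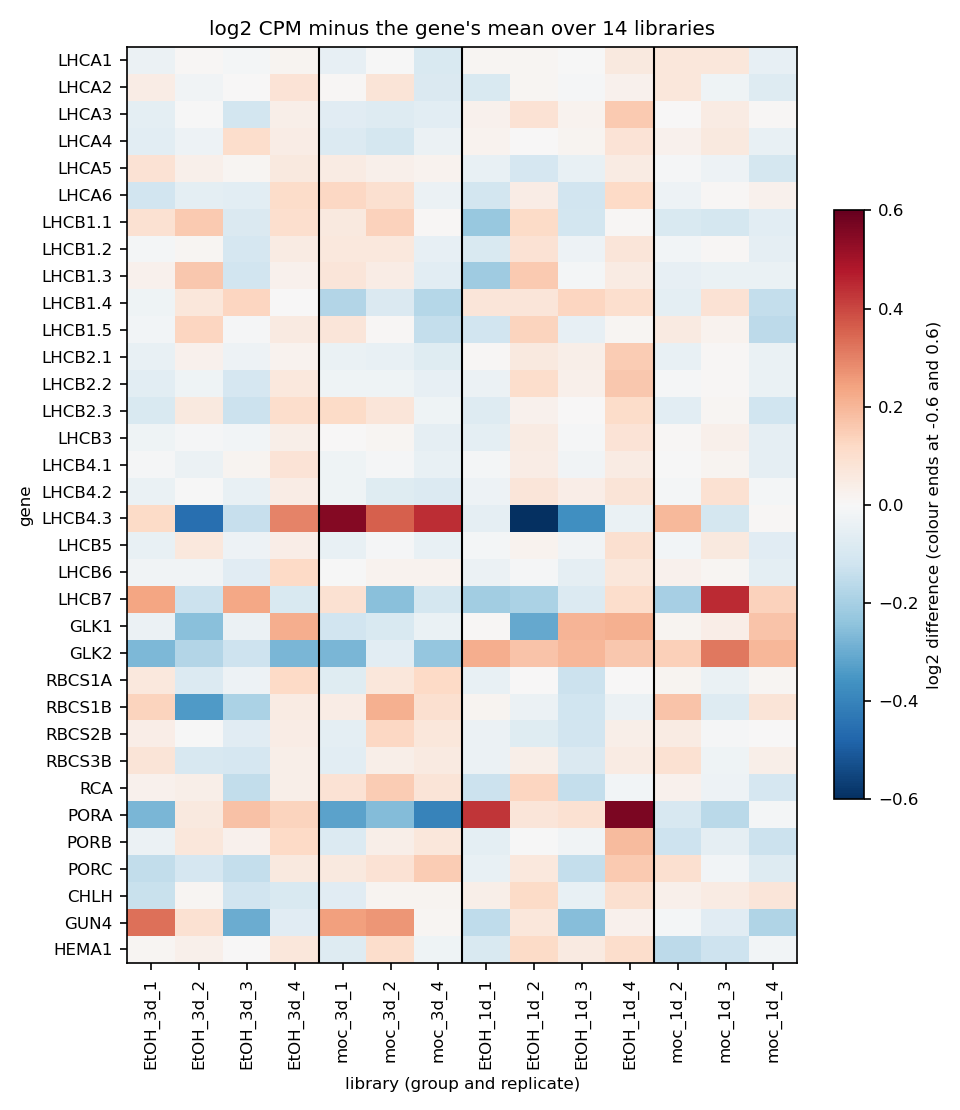
Heat map of the 34 genes (rows) in the 14 libraries (columns, grouped as EtOH_3d, moc_3d, EtOH_1d and moc_1d): colour gives log2 CPM minus the gene's own mean, red above and blue below, with LHCB4.3 in EtOH_1d replicate 2 beyond the end of the scale at -0.81. Most rows are pale; GLK2 is blue in the 7 libraries of 3 d and red in the 7 of 1 d, PORA is blue in all moc_3d libraries, and LHCB4.3 is red in all of them.

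The first question was whether ethanol vapour changed these genes. At each duration taken alone, none of the 34 genes passed edgeR's quasi-likelihood test with Benjamini-Hochberg adjustment over all genes (threshold 0.05). For EtOH_3d minus moc_3d the background was 0.554% of tested genes called, and for EtOH_1d minus moc_1d it was 0%. Without adjustment, p was under 0.05 for 5 of the 34 genes at 3 d (background 8.82%) and for 4 at 1 d (background 4.32%). DESeq2 called none of the 34 at either duration, and limma-voom called LHCB1.4 at 3 d and none at 1 d. In the mean of the ethanol responses over both durations, 2 of the 34 genes rose, PORA and LHCB1.4, and none fell, where 0.516% of all tested genes were called and 4 of the 34 had an unadjusted p under 0.05 (background 7.96%). In the difference between the responses at 3 d and 1 d none of the 34 passed by edgeR, DESeq2 or limma-voom, where 0.0434% of all genes did by edgeR, and none of the 34 had an unadjusted p under 0.05 (background 5.56%).

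The differences were small and, for most of the genes, closely bounded. The median size of the log2 fold change, regardless of sign, was 0.04 over the 34 genes at 3 d and 0.03 at 1 d, against 0.13 and 0.10 over all genes tested. The 95% interval of the fold change lay wholly within 0.25 of 0 on the log2 scale for 26 of the 34 genes at 3 d and for 28 at 1 d, against 12.6% and 17.8% of all genes. The signed median was 0.01 at both durations, a value whose sign was not stable: it was below 0 in 4 of 23 alternatives at 3 d and in 3 of 23 at 1 d. In all, 19 genes lay above 0 at 3 d and 21 at 1 d, where 49.8% and 51.0% of all genes did. For the mean of the responses 29 of the 34 intervals lay within 0.25 of 0 (33.2% of all genes) and 20 genes lay above 0 (50.2%). For the difference of the responses 22 intervals did (4.72%) and 15 genes lay above 0 (49.3%). The 34 genes, most of them at high counts, were not matched for level with all genes. Narrow intervals were not particular to them. With ethanol at 3 d the interval lay within 0.25 of 0 for 91.7% of 12 other nuclear genes of photosystem I and 100% of 11 of photosystem II. It did for 87.5% of 8 genes of electron transport and ATP synthase and 80% of 15 of the Calvin cycle.

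**Figure D2:**
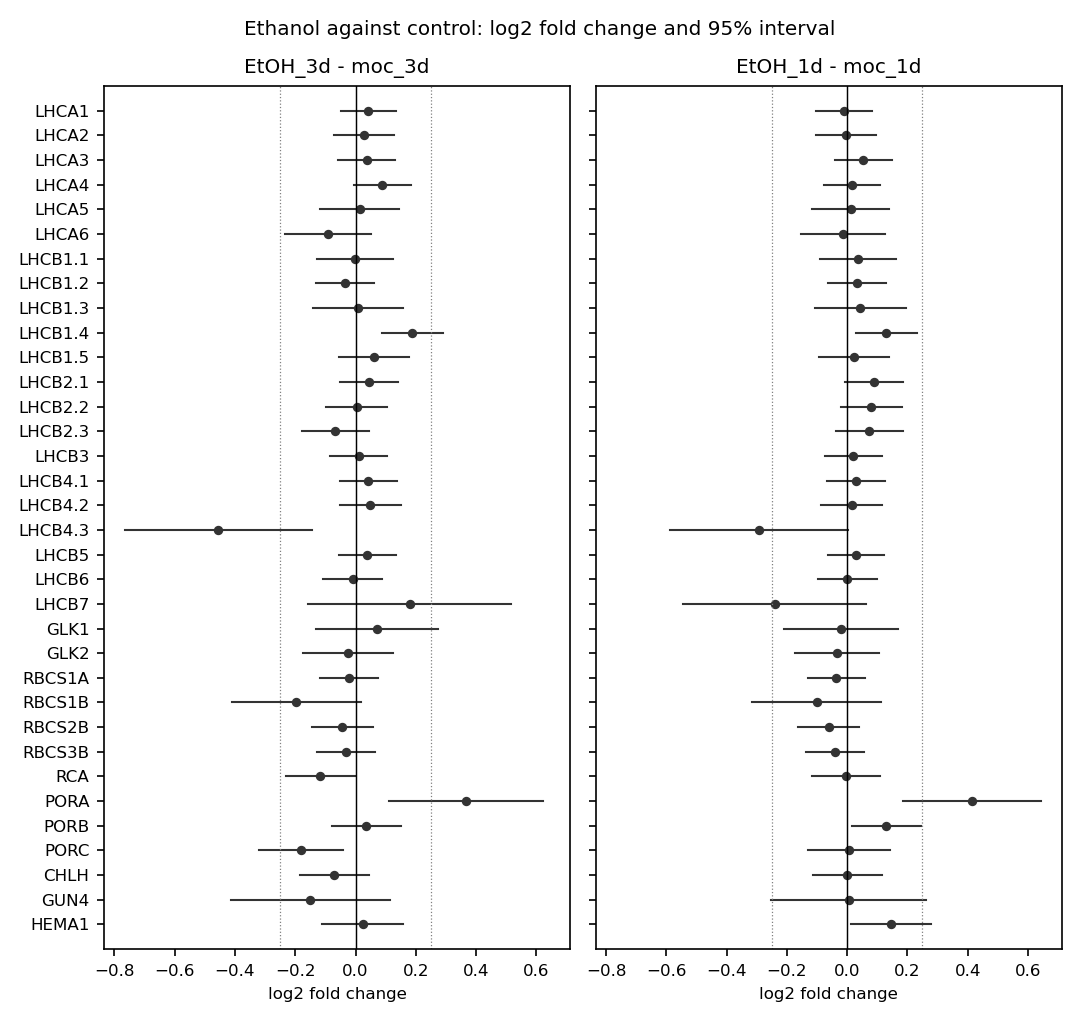
Log2 fold changes of ethanol over control for each of the 34 genes, at 3 d (left) and 1 d (right). Points are edgeR estimates, lines are 95% intervals and dotted lines mark -0.25 and 0.25; most intervals lie between the dotted lines, while PORA lies to the right and LHCB4.3 to the left at both durations, and no gene passed at adjusted p under 0.05 in either panel.

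PORA (AT5G54190), on the minus strand at chr5:21990864-21992814 in TAIR10.1, showed the largest rise with ethanol of the 34 genes. It encodes a protochlorophyllide oxidoreductase, the light-driven enzyme that makes chlorophyllide, and is known as the form of dark-grown seedlings whose transcript drops in the light. Its level was 23.6, 29.8, 32.3 and 31.4 CPM in the EtOH_3d libraries, against 22.9, 23.8 and 21.6 CPM in the moc_3d libraries. It was 38.5, 30.0, 30.5 and 42.4 CPM in the EtOH_1d libraries, against 26.7, 25.6 and 28.4 CPM in the moc_1d libraries. The ethanol libraries of 1 d all lay above the 1 d controls. At 3 d the lowest ethanol library, EtOH_3d replicate 1, fell among the controls. The log2 fold change was 0.37 ± 0.13 (SE) at 3 d (edgeR adjusted p = 0.263) and 0.41 ± 0.11 at 1 d (0.528). Their mean was 0.39, with a 95% interval of 0.22 to 0.56, an edgeR adjusted p of 0.0099 and a fold change of 1.31. PORA passed in this comparison under all 22 alternatives run for it, with adjusted p between 0.000861 and 0.0465.

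LHCB1.4 (AT2G34430), on the plus strand at chr2:14524607-14525918, encodes a main protein of the trimeric antenna of photosystem II. Its level was 4599, 4903, 5129 and 4696 CPM in the EtOH_3d libraries, against 4149, 4414 and 4161 CPM in the moc_3d libraries. It was 4920, 4929, 5120 and 5027 CPM in the EtOH_1d libraries, against 4501, 4968 and 4244 CPM in the moc_1d libraries. The groups did not overlap at 3 d, while at 1 d moc_1d replicate 3 lay within the ethanol range. The log2 fold change was 0.19 ± 0.05 (SE) at 3 d (edgeR adjusted p = 0.0662) and 0.13 ± 0.05 at 1 d (1), and their mean was 0.16, with a 95% interval of 0.09 to 0.23 and adjusted p = 0.0135. Without moc_1d replicate 4 the value at 1 d was 0.08. The call of the mean held in 18 of 22 alternatives, with adjusted p between 0.0018 and 0.151. It was lost when any of 4 control libraries was left out, with an adjusted p of 0.0879 without moc_1d replicate 2, 0.151 without moc_1d replicate 4, 0.0722 without moc_3d replicate 1 and 0.0769 without moc_3d replicate 4.

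The 250 bases upstream of the annotated starts are shown for PORA and LHCB1.4. By edgeR these 2 genes were called higher in the mean of the ethanol responses, and at neither duration alone. Those of LHCB1.5, the neighbour of LHCB1.4 on chromosome 2 that is read in the opposite direction and did not pass, are shown as well. They are from the RefSeq annotation of TAIR10.1, each 5' to 3' on the strand of its gene, at chr5:21992815-21993064 (minus) for PORA, chr2:14524357-14524606 (plus) for LHCB1.4 and chr2:14523569-14523818 (minus) for LHCB1.5. Capitals mark matches to the motifs described after them.
PORA: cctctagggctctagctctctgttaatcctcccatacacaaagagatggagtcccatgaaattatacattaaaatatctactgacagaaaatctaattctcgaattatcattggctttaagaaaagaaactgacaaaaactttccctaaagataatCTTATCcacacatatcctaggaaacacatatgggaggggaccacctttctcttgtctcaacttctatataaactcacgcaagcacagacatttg
LHCB1.4: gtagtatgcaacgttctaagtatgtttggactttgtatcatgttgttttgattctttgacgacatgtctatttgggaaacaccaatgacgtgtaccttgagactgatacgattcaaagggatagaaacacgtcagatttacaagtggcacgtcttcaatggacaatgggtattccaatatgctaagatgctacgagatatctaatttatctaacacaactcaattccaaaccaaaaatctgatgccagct
LHCB1.5: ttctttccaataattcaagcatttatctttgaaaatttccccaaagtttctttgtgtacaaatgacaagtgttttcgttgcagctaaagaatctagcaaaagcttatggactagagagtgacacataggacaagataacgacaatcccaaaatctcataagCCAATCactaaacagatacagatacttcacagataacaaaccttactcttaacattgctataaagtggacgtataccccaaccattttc

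Of the motifs searched on both strands, the G-box CACGTG is the letters bound by bZIP and bHLH factors of light signalling, CCAATC is known from promoters bound by GLK1, and the I-box GATAAG from promoters of RBCS genes. PORA holds 1 I-box, on the opposite strand, which begins 94 bases before the start. LHCB1.5 holds 1 CCAATC, which begins 89 bases before its start, and LHCB1.4 holds none of the letters searched in this window. CCAATC was found upstream of 13 of the 34 genes (38.2%), against 10.2% of 27443 protein-coding genes. The G-box was found upstream of 6 (17.6% against 6.49%) and the I-box upstream of 8 (23.5% against 12.3%), and no 2 matches in the 34 windows overlapped. The window of GLK2 holds none of the motifs, and that of GLK1 holds 1 I-box. A match is a description of letters, not of binding.

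**Figure D3:**
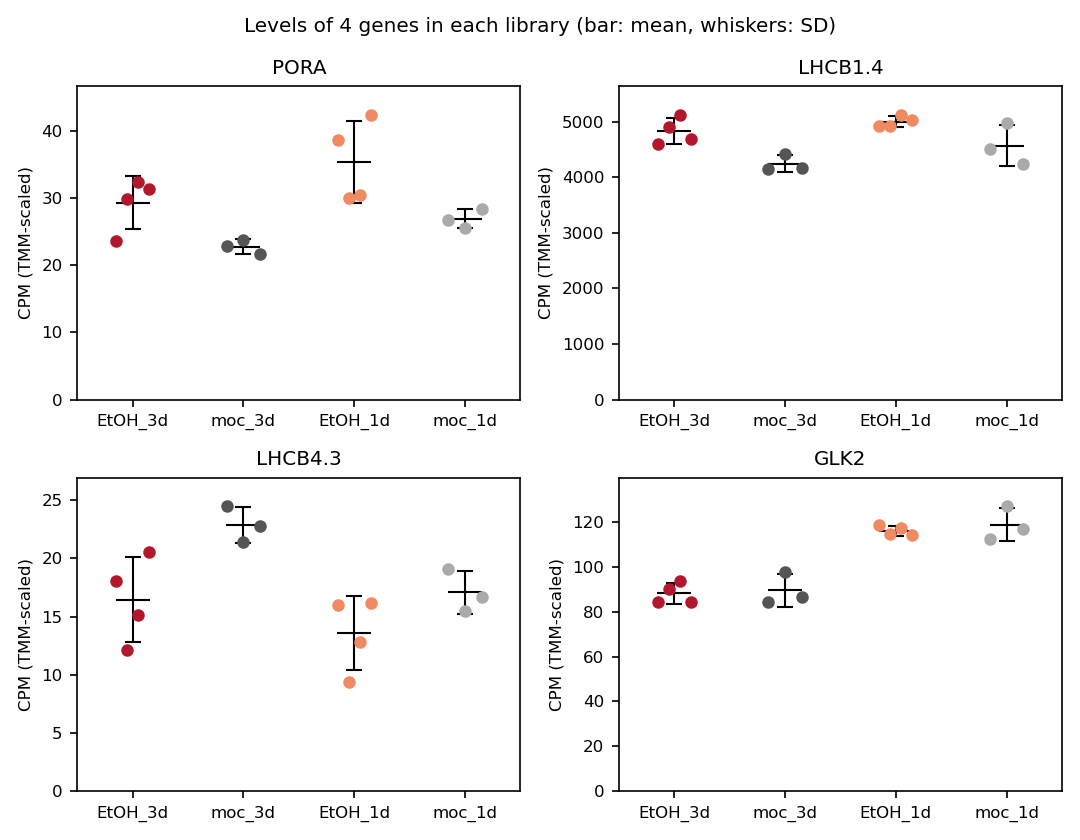
Levels of PORA, LHCB1.4, LHCB4.3 and GLK2 in each library, in TMM-scaled CPM on linear axes from 0: points are libraries, the wide bar is the group mean and whiskers are the SD. PORA and LHCB1.4 have higher means in each ethanol group than in its control, LHCB4.3 has lower means, and GLK2 is lower in both 3 d groups than in both 1 d groups.

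Among the 6 LHCA genes of photosystem I, none was called at either duration and every 95% interval lay within 0.25 of 0. Log2 fold changes ran from -0.09 for LHCA6 to 0.09 for LHCA4 at 3 d and from -0.01 to 0.05 at 1 d. Their summed level was 23270 ± 516 CPM in EtOH_3d (SD, n = 4) and 22440 ± 202 CPM in moc_3d (SD, n = 3), and 23750 ± 625 CPM in EtOH_1d (n = 4) and 23510 ± 747 CPM in moc_1d (n = 3). The sums did not overlap at 3 d, at 22690 to 23920 CPM in EtOH_3d against 22240 to 22650 CPM in moc_3d, and overlapped at 1 d. LHCA5 and LHCA6, which help link photosystem I to the NAD(P)H dehydrogenase-like complex, together made up a small part of that sum. LHCA5 took 0.663% of it in EtOH_3d, 0.681% in moc_3d, 0.613% in EtOH_1d and 0.614% in moc_1d.

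The 5 LHCB1 genes encode near-identical proteins, and their coding sequences differ at few positions near the 3' end, where Lasy-Seq reads gather. The last 60 bases of each coding sequence, stop codon included, show positions by which reads could tell these genes apart. How reads were in fact assigned was not examined. The bases are given 5' to 3' from RefSeq (TAIR10.1), with capitals at positions that differ from LHCB1.3.
LHCB1.1: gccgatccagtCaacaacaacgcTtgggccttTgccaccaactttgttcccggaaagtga
LHCB1.2: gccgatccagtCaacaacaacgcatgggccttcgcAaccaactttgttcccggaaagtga
LHCB1.3: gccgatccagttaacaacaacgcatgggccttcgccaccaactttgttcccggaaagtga
LHCB1.4: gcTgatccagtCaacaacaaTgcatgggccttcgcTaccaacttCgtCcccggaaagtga
LHCB1.5: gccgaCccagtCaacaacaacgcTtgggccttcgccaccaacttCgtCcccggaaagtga

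LHCB1.4 differed from LHCB1.3 at 6 of these 60 positions, LHCB1.5 at 5, LHCB1.1 at 3 and LHCB1.2 at 2. In the last 500 nt of the longest annotated transcripts, untranslated parts included, 31.7% of the 50 nt stretches of LHCB1.3 also occur in another gene. The share was 18.2% for LHCB1.5, 10.2% for LHCB1.2, 4.21% for LHCB1.4 and none for LHCB1.1. Stretches of LHCB1.2 and LHCB1.3 also occur in LHCB1.1, outside its own last 500 nt. Values of all these genes are uncertain for this reason, since reads from shared stretches could be dropped or split. LHCB1.4, the member of the family called in the mean of the ethanol responses, shared such stretches with LHCB1.5. The log2 fold change of LHCB1.5 was 0.06 ± 0.06 (SE) at 3 d and 0.02 ± 0.06 at 1 d.

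LHCB1.3 made up 35.8% ± 1.04 of the LHCB1 sum in EtOH_3d (SD, n = 4), 36.3% ± 0.31 in moc_3d (SD, n = 3), 35.7% ± 1.12 in EtOH_1d (n = 4) and 35.8% ± 0.95 in moc_1d (n = 3). LHCB1.4 made up 10.2% ± 0.86 in EtOH_3d and 9.09% ± 0.41 in moc_3d, and 10.7% ± 0.85 in EtOH_1d and 10.1% ± 0.61 in moc_1d. At 3 d the shares of LHCB1.4 did not overlap, at 9.70% to 11.5% in EtOH_3d against 8.63% to 9.42% in moc_3d, while at 1 d they did, at 9.70% to 11.6% in EtOH_1d against 9.62% to 10.8% in moc_1d. The LHCB1 sum itself was 47610 ± 2390 CPM in EtOH_3d (n = 4), 46730 ± 2230 CPM in moc_3d (n = 3), 46750 ± 3620 CPM in EtOH_1d (n = 4) and 45320 ± 1060 CPM in moc_1d (n = 3). At 3 d the ethanol and control means differed by less than the SD of either group. At 1 d they differed by less than the SD of the ethanol group and by more than that of the control group. LHCB1.1, LHCB1.2 and LHCB1.3 had log2 fold changes between -0.04 and 0.04 at both durations.

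LHCB2 proteins join LHCB1 in the antenna trimers and are phosphorylated when energy is shifted between photosystems. None of the 3 LHCB2 genes was called with ethanol, and their log2 fold changes ran from -0.07 to 0.04 at 3 d and from 0.07 to 0.09 at 1 d. For LHCB2.3 the response at 3 d minus that at 1 d was -0.14 ± 0.08 (SE, edgeR adjusted p = 0.921), among the 3 smallest p of the 34 genes in that comparison. Its level was 1826, 2024, 1777 and 2094 CPM in the EtOH_3d libraries against 2108, 2047 and 1913 CPM in the moc_3d libraries. At 1 d it was 1846, 1983, 1951 and 2101 CPM in the EtOH_1d libraries against 1863, 1960 and 1793 CPM in the moc_1d libraries. The groups overlapped at both durations. The last 500 nt of LHCB2.3 lie entirely within annotated sequence of the next gene, AT3G27700, so its counts are uncertain, and 28.4% of the 50 nt stretches of LHCB2.2 occur in LHCB2.1.

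The other LHCB genes encode the linking and minor antenna proteins of photosystem II. LHCB3, LHCB4.1, LHCB4.2, LHCB5 and LHCB6 had log2 fold changes from -0.01 to 0.05 at 3 d and no larger than 0.03 in size at 1 d, and none was called. LHCB4.3 (AT2G40100, chr2:16745628-16747424), also named LHCB8 and known as a low-level relative of LHCB4.1 and LHCB4.2, differed from them. Its level was 18.0, 12.1, 15.1 and 20.6 CPM in the EtOH_3d libraries, against 24.5, 21.4 and 22.8 CPM in the moc_3d libraries. It was 16.0, 9.41, 12.9 and 16.2 CPM in the EtOH_1d libraries, against 19.1, 15.5 and 16.7 CPM in the moc_1d libraries. All 4 ethanol libraries lay below all 3 controls at 3 d, and the groups overlapped at 1 d.

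These values of LHCB4.3 rest on 45 to 258 counts a library. Its log2 fold change was -0.45 ± 0.15 (SE) at 3 d (edgeR adjusted p = 0.251) and -0.29 ± 0.15 at 1 d (1). The mean over both durations was -0.37, with a 95% interval of -0.59 to -0.16, and did not pass (edgeR adjusted p = 0.118). The mean passed in 4 of 21 alternatives, with adjusted p between 0.0267 and 0.423: without the filter on low counts (0.0267), with the shared column kept as moc_3d replicate 3 (0.0486), with the replicate number as a block (0.0394) and without EtOH_3d replicate 4 (0.0376). Its level in the 3 d controls was also high against the 1 d controls, with a log2 difference of 0.41 ± 0.16 that did not pass (0.318) and was 0.235 with the shared column kept as moc_1d replicate 1. Of the 14 libraries, those of moc_3d hold the 3 highest values.

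LHCB7 (AT1G76570), a rare member of the family, had 15.6, 12.1, 15.6 and 12.4 CPM in the EtOH_3d libraries against 14.1, 11.1 and 12.3 CPM in the moc_3d libraries. It had 11.4, 11.6, 12.5 and 14.2 CPM in the EtOH_1d libraries against 11.5, 18.1 and 14.6 CPM in the moc_1d libraries. The groups overlapped at both durations. The response was 0.18 ± 0.17 (SE) at 3 d and -0.24 ± 0.15 at 1 d, and the difference between them, 0.42 ± 0.23, did not pass (edgeR adjusted p = 0.919). Without moc_1d replicate 3, the library with the highest level, that difference was 0.22.

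**Figure D4:**
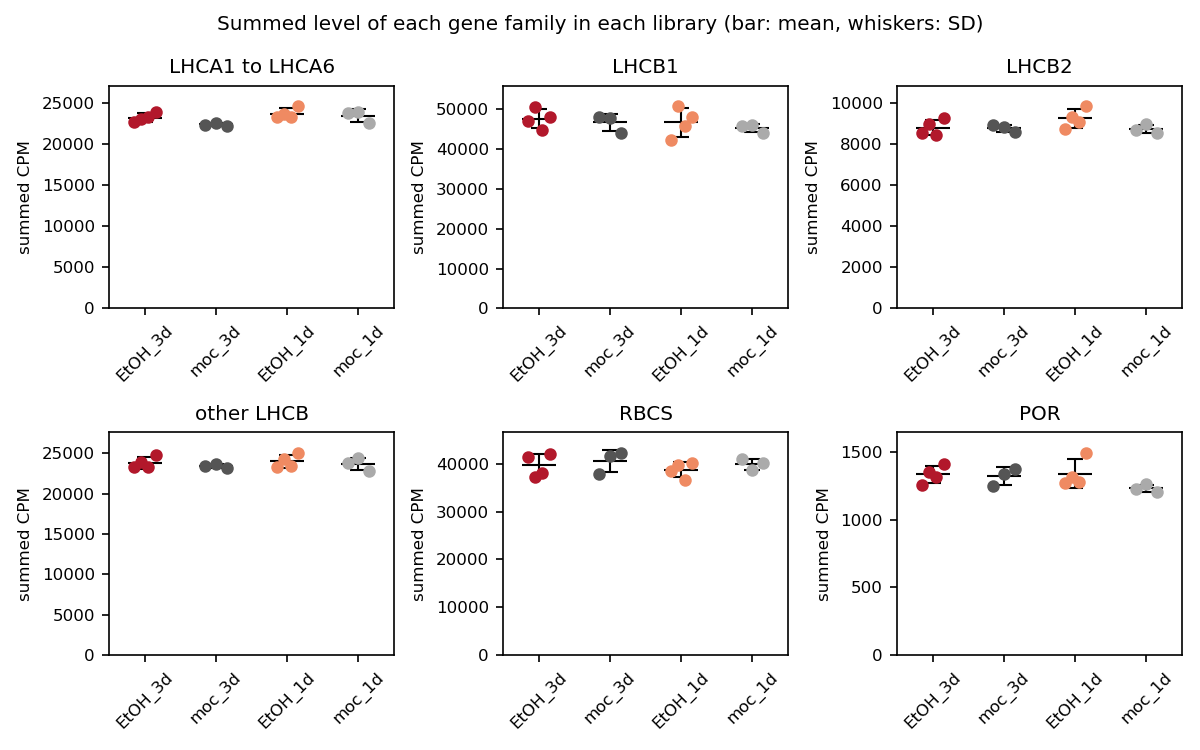
Summed level of each gene family in each library, in TMM-scaled CPM on linear axes from 0: points are libraries, the wide bar is the group mean and whiskers are the SD. Ethanol and control libraries overlap in every family at both durations except LHCA at 3 d and POR at 1 d, and for RBCS at 3 d they cover 37270 to 42050 CPM in EtOH_3d and 37930 to 42380 CPM in moc_3d.

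The RBCS genes encode the small subunit of Rubisco, and RCA encodes Rubisco activase, which frees the enzyme's blocked sites. None of the 4 RBCS genes was called with ethanol. Their log2 fold changes were below 0 at both durations, at -0.02 for RBCS1A, -0.20 for RBCS1B, -0.04 for RBCS2B and -0.03 for RBCS3B at 3 d, and at -0.04, -0.10, -0.06 and -0.04 at 1 d, against 49.8% and 51.0% of all genes above 0. The RBCS sum was 39720 ± 2420 CPM in EtOH_3d (SD, n = 4) and 40640 ± 2380 CPM in moc_3d (n = 3), and 38800 ± 1570 CPM in EtOH_1d (n = 4) and 39950 ± 1170 CPM in moc_1d (n = 3). The differences were smaller than the SD of either group at 3 d and at 1 d. RBCS1A made up 59.0% of the sum in EtOH_3d, 58.6% in moc_3d, 58.0% in EtOH_1d and 57.8% in moc_1d.

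RBCS1B, RBCS2B and RBCS3B lie side by side on chromosome 5, between 15376988 and 15385320, and their coding sequences are 96.7% to 97.2% identical. The last 500 nt of each gene's longest annotated transcript were compared with other genes. Of their 50 nt stretches, 27.5% for RBCS3B and 19.5% for RBCS2B occur in another of these genes. None do for RBCS1A and RBCS1B. Stretches of RBCS2B and RBCS3B also occur in RBCS1B, outside its own last 500 nt, so its counts are uncertain too. RBCS1B had 1743, 1257, 1395 and 1644 CPM in the EtOH_3d libraries against 1643, 1848 and 1701 CPM in the moc_3d libraries, and the groups overlapped. Its mean response over both durations was -0.15 ± 0.07 (SE, edgeR adjusted p = 0.635). Without the filter on low counts it was called at 3 d and in the mean.

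RCA had 2141, 2151, 1895 and 2157 CPM in the EtOH_3d libraries and 2230, 2334 and 2220 CPM in the moc_3d libraries. Every ethanol library at 3 d lay below every control, yet the log2 fold change of -0.12 ± 0.06 (SE) did not pass (edgeR adjusted p = 0.546). At 1 d RCA had 1920, 2303, 1906 and 2079 CPM in the EtOH_1d libraries and 2144, 2058 and 1963 CPM in the moc_1d libraries, which overlapped (0.00 ± 0.06). RCA was one of 3 of the 34 genes whose libraries did not overlap at 3 d, with LHCB4.3 below and LHCB1.4 above the controls, where 7.75% of all genes did not overlap. At 1 d PORA was the one such gene (background 6.12%).

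Chlorophyll is made from glutamate-derived tetrapyrroles. HEMA1 encodes glutamyl-tRNA reductase, which commits the pathway, CHLH the magnesium chelatase subunit that binds protoporphyrin, and GUN4 the protein that activates that chelatase. None of these was called with ethanol. HEMA1 had 171, 173, 170 and 178 CPM in the EtOH_3d libraries against 161, 182 and 167 CPM in the moc_3d libraries, and 160, 184, 176 and 183 CPM in the EtOH_1d libraries against 152, 156 and 168 CPM in the moc_1d libraries. Its log2 fold change was 0.02 ± 0.07 (SE) at 3 d and 0.15 ± 0.07 at 1 d (edgeR adjusted p = 0.952 and 1). CHLH had -0.07 ± 0.06 at 3 d and 0.00 ± 0.06 at 1 d. GUN4 had -0.15 ± 0.12 at 3 d and 0.01 ± 0.12 at 1 d, and 22.4% of its last 50 nt stretches lie in a neighbouring gene, AT3G59410.

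PORB and PORC encode the forms of protochlorophyllide oxidoreductase that work in green tissue. PORB, the main form by count, had 1073, 1154, 1121 and 1195 CPM in the EtOH_3d libraries against 1041, 1127 and 1155 CPM in the moc_3d libraries. At 1 d it had 1055, 1099, 1084 and 1254 CPM in the EtOH_1d libraries against 1011, 1059 and 1008 CPM in the moc_1d libraries. Only the lowest ethanol library at 1 d reached down into the control range. The log2 fold change was 0.04 ± 0.06 (SE) at 3 d and 0.13 ± 0.06 at 1 d (edgeR adjusted p = 0.912 and 1). The value at 1 d was 0.07 without EtOH_1d replicate 4, the highest library, and 0.08 with the shared control column kept as moc_1d replicate 1 or with all 16 columns.

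PORC had 160, 166, 161 and 185 CPM in the EtOH_3d libraries against 185, 189 and 197 CPM in the moc_3d libraries, with the highest ethanol library just above the lowest control. At 1 d it had 172, 185, 161 and 198 CPM in the EtOH_1d libraries against 190, 175 and 169 CPM in the moc_1d libraries, which overlapped. Its log2 fold change was -0.18 ± 0.07 (SE) at 3 d (edgeR adjusted p = 0.365) and 0.01 ± 0.07 at 1 d. The difference of these responses, -0.19 ± 0.10, had the smallest p of the 34 genes in that comparison and did not pass (adjusted p = 0.913). PORA made up 2.19% ± 0.24 of the summed POR level in EtOH_3d (SD, n = 4) and 1.73% ± 0.14 in moc_3d (n = 3), and 2.64% ± 0.36 in EtOH_1d (n = 4) and 2.19% ± 0.16 in moc_1d (n = 3), so it was a small part of the total. The summed POR level was 1333 ± 64.6 CPM in EtOH_3d (n = 4) and 1321 ± 65.0 CPM in moc_3d (n = 3). At 1 d it did not overlap, at 1266 to 1494 CPM in EtOH_1d against 1205 to 1260 CPM in moc_1d.

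The second question was how seedlings after 3 d on treatment differed from those after 1 d, in ethanol and in control. The 3 d groups started at an age of 11 d and the 1 d groups at 13 d. Duration and starting age therefore cannot be told apart here. Of the 34 genes 1, GLK2, was lower in both, and none was higher. The background of called genes was 1.00% for EtOH_3d minus EtOH_1d and 0.842% for moc_3d minus moc_1d. Before adjustment, p was under 0.05 for 6 of the 34 genes in the ethanol pair (background 10.2%) and for 5 in the control pair (9.34%). The 95% interval lay within 0.25 of 0 for 29 of 34 genes in the ethanol pair (16.5% of all genes) and for 25 in the control pair (11.3%). Genes above 0 numbered 14 of 34 in the ethanol pair (49.8% of all genes) and 18 in the control pair (49.6%).

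GLK2 (AT5G44190), on the plus strand at chr5:17798262-17800926, encodes a GARP transcription factor that activates light-harvesting and chlorophyll synthesis genes and acts redundantly with GLK1 in leaves. Its level was 84.4, 90.3, 93.6 and 84.4 CPM in the EtOH_3d libraries, against 119, 115, 117 and 114 CPM in the EtOH_1d libraries. In the controls it was 84.2, 97.7 and 86.7 CPM in moc_3d, against 112, 127 and 117 CPM in moc_1d. All 7 libraries of 3 d lay below all 7 of 1 d. GLK2 was the only one of the 34 genes for which this held, in either direction, while 0.738% of all tested genes separated the durations in this way.

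The log2 difference of GLK2 was -0.40 ± 0.07 (SE) in EtOH_3d minus EtOH_1d, with a 95% interval of -0.53 to -0.26 (edgeR adjusted p = 0.000166), and -0.41 ± 0.08 in moc_3d minus moc_1d, with an interval of -0.56 to -0.26 (0.00104). These are fold changes of 0.758 and 0.754. The ethanol pair was called in all 23 alternatives, with adjusted p between 7.1e-06 and 0.00163. The control pair was called in 22 of 23, between 0.00012 and 0.104. The exception kept all 16 columns, where the same library stands in both groups (-0.31, adjusted p = 0.104). Ethanol itself left GLK2 at -0.02 ± 0.07 at 3 d and -0.03 ± 0.07 at 1 d. The last 500 nt of GLK2 share no 50 nt stretch with another gene.

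**Figure D5:**
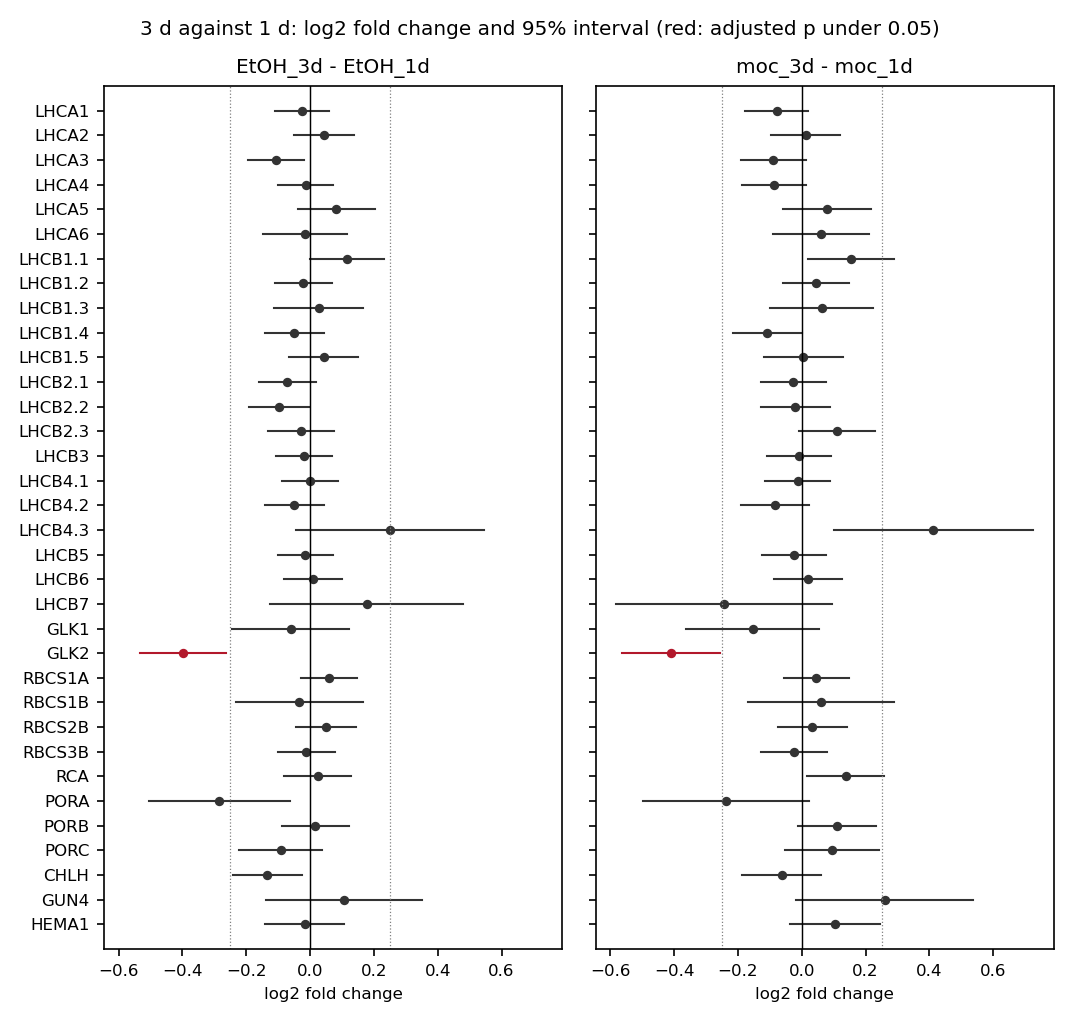
Log2 fold changes of 3 d over 1 d for each of the 34 genes, in ethanol (left) and in control seedlings (right). Points are edgeR estimates, lines are 95% intervals, dotted lines mark -0.25 and 0.25 and red marks adjusted p under 0.05; GLK2 is red in both panels, at -0.40 and -0.41.

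GLK1 (AT2G20570), the partner of GLK2, had a log2 difference of -0.06 ± 0.09 (SE) in the ethanol pair and -0.15 ± 0.10 in the control pair, and neither passed (edgeR adjusted p = 0.893 and 0.707). It had 49.97 to 69.3 CPM in EtOH_3d against 48.1 to 69.1 CPM in EtOH_1d, which overlapped. In the controls it had 55.1 to 57.9 CPM in moc_3d against 60.2 to 67.1 CPM in moc_1d, which did not. Over the light-harvesting genes, known targets of both factors among them, the median log2 difference was -0.01 in both the ethanol and the control pair, and none of the 21 was called.

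PORA was also at lower levels after 3 d, without passing: the log2 difference was -0.28 ± 0.11 (SE) in the ethanol pair (edgeR adjusted p = 0.295) and -0.24 ± 0.13 in the control pair (0.588). CHLH had 427, 473, 432 and 440 CPM in the EtOH_3d libraries against 480, 507, 454 and 501 CPM in the EtOH_1d libraries, which overlapped (-0.13 ± 0.05, adjusted p = 0.319). In the controls CHLH had 446, 474 and 474 CPM in moc_3d against 479, 485 and 492 CPM in moc_1d, which did not overlap (-0.06 ± 0.06, adjusted p = 0.827).

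LHCB1.1 lay on the other side. It had 6999, 7402 and 6738 CPM in the moc_3d libraries against 6312, 6246 and 6436 CPM in the moc_1d libraries, with no overlap (0.15 ± 0.07, edgeR adjusted p = 0.442). In ethanol it had 7159, 7484, 6327 and 7199 CPM in EtOH_3d against 5738, 7279, 6217 and 6750 CPM in EtOH_1d, which overlapped (0.12 ± 0.06, adjusted p = 0.488). In all, the libraries of moc_3d and moc_1d did not overlap for 11 of the 34 genes, 5 higher and 6 lower, where 15.7% of all genes did not. Those of EtOH_3d and EtOH_1d did not overlap for GLK2 alone (background 5.90%). The control pair has 3 libraries in each group and the ethanol pair 4.

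Some other measures also differed between groups of 3 d and 1 d, not all of them in both pairs. Chloroplast counts made up 1.08% to 1.5% in moc_3d against 1.59% to 1.83% in moc_1d, with no overlap, and 1.53% to 1.92% in EtOH_3d against 1.53% to 2.28% in EtOH_1d, with overlap. Among the root markers, 2 of 15 fell in the ethanol pair, where 1.00% of all genes were called. They were TIP2;2 (-0.26 ± 0.06 SE, edgeR adjusted p = 0.0252) and TIP2;3 (-0.63 ± 0.17, 0.0496), both tonoplast aquaporins. No root marker was called in the control pair (background 0.842%). TIP2;2 was still lower in the controls, at 110 to 118 CPM in moc_3d against 124 to 143 CPM in moc_1d, with no overlap. TIP2;3 had 8.03 to 10.2 CPM in moc_3d against 9.48 to 18.0 CPM in moc_1d, which overlapped. What part these measures have in the result for GLK2 was not tested.

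Other genes of photosynthesis give the setting. None of 12 nuclear genes of photosystem I, 11 of photosystem II, 8 of electron transport and ATP synthase and 15 of the Calvin cycle was called in any of the 6 comparisons. The share of all tested genes called was 0% to 1.00%, depending on the comparison. At such shares a list of this size can hold no call without differing from other genes. All 12 photosystem I genes had log2 fold changes above 0 with ethanol at both durations, with medians of 0.08 at 3 d and 0.04 at 1 d. Of all genes, 49.8% lay above 0 at 3 d and 51.0% at 1 d. PSAF, a subunit that docks plastocyanin, had the smallest p among them at 3 d (0.13 ± 0.05 SE, edgeR adjusted p = 0.342). For photosystem II the medians were 0.02 and 0.03, with PSBR at 0.11 ± 0.05 at 3 d (0.418). Of the 15 Calvin cycle genes 12 lay below 0 at 3 d, with a median of -0.07, and 9 at 1 d, with a median of -0.01. Whether the genes of a list vary together between libraries was not tested, so these counts need not be separate results. FBA1, a plastid fructose-bisphosphate aldolase, had -0.18 ± 0.06 at 3 d (0.251). For electron transport the medians were 0.01 and 0.03, with FNR1, a ferredoxin reductase, at -0.07 ± 0.06 at 3 d (0.802).

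Of 21 other genes of chlorophyll synthesis none was called in any comparison, against the same background of 0% to 1.00%. That background applies to the other lists of this paragraph too. The median log2 fold change of the 21 genes was -0.03 with ethanol at 3 d and -0.02 at 1 d. PCB2, the divinyl reductase of the pathway, had the smallest p at 3 d (-0.26 ± 0.08 SE, edgeR adjusted p = 0.203). None of 9 genes of chlorophyll breakdown was called, and NYC1, a chlorophyll b reductase, had 0.22 ± 0.09 at 3 d (0.385). None of 16 regulators of light response and greening was called, with BBX21, a B-box factor, at 0.27 ± 0.10 (0.365). Among 6 LHC-like proteins none was called, with ELIP1, an early light-induced protein, at -0.49 ± 0.22 (0.479).

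Of 12 genes for the targeting of light-harvesting proteins and the assembly of Rubisco, 1 fell in the mean of the ethanol responses. In that comparison 0.516% of all tested genes were called. CPN60A encodes the alpha subunit of the chloroplast chaperonin that folds the Rubisco large subunit. It had 253 ± 20 CPM in EtOH_3d (SD, n = 4) and 298 ± 15 CPM in moc_3d (SD, n = 3), and 254 ± 18 CPM in EtOH_1d (n = 4) and 281 ± 5 CPM in moc_1d (n = 3). Its log2 fold change was -0.24 ± 0.07 (SE) at 3 d (edgeR adjusted p = 0.0724) and -0.15 ± 0.06 at 1 d (1), and the mean was -0.19 ± 0.05 (0.0249). This call was not followed over the alternatives. The groups did not overlap at 3 d and overlapped at 1 d. Of the 15 root markers none was called with ethanol at 3 d (background 0.554%) or at 1 d (background 0%). Their median log2 fold change was 0.08 at 3 d and 0.13 at 1 d. The smallest p among them at 3 d was that of NRT2:1, a nitrate transporter, at -1.15 ± 0.51 (0.513).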

How the data were processed

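The authors deposited whole-number read counts for 27416 genes, with no normalization, per the file headers and values. Per the submitters' processing notes, bcl2fastq, Trimmomatic, HISAT2, featureCounts and DESeq2 were used with the build TAIR10. The sources used here do not give the strand setting. A second deposited table of scaled counts was not used.

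Groups come from the sample titles. Identical columns (moc_1d replicate 1, moc_3d replicate 3) were left out. Genes were filtered with filterByExpr, scaled by TMM and tested with edgeR 4.0.16 (R 4.3.3), 4 groups in 1 quasi-likelihood fit, robust and two-sided, with Benjamini-Hochberg adjustment over 18419 genes. The pipeline was tested on simulated data. Intervals of fold changes are 95% intervals. Lasy-Seq reads fall near 3' ends, so shared ends limit the assignment of reads to genes.

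Alternatives were DESeq2 1.42.0, limma-voom (limma 3.58.1), other scaling, no filter, other sets of columns, a replicate block and each library left out. The 34 genes and the 10 other lists were chosen with earlier results of these data known. Library values are given for genes called in any comparison, for the 3 smallest p in each comparison, and, chosen after their values were seen, for RCA, RBCS1B and HEMA1. Of the other lists, called members are named, or else the smallest p at 3 d. Symbols, positions and sequences come from RefSeq's TAIR10.1, in which 26719 of the locus codes have an entry. Its nuclear coordinates are those of TAIR10.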

Additional observations from a re-analysis of the deposited data

Results flagged for a closer look

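RCA, which encodes Rubisco activase, had 1895 CPM in EtOH_3d replicate 3, while the other libraries of that group had 2141, 2151 and 2157 CPM. The gap to the nearest library is large against the range of the group by Dixon's test at 95%. This was 1 of 68 groups of 4 libraries tested over the 34 genes, and chance flags about 1 in 20 groups.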

How the results depend on the processing

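Over the alternatives, genes of the 34 were followed in the comparisons where they were called or had one of the 3 smallest p. None of these changed direction in any alternative run. Other named genes were not followed in this way. The signed median log2 fold change of the 34 genes lay near 0 and took the opposite sign in 19 of 136 values over the 6 comparisons, with a range of -0.0372 to 0.0414. All 136 values lay within the spread between libraries of the reported ones. For EtOH_3d minus moc_3d it was 0.00905 as reported and -0.0077 to 0.0291 over the alternatives, and for EtOH_1d minus moc_1d it was 0.0132 and -0.00817 to 0.0309. Of the 34 genes, the number called at 3 d with ethanol was 0 as reported, 1 by limma-voom, 2 without the filter on low counts and 0 to 1 with a library left out. In the mean of the ethanol responses it was 2 as reported, 4 without the filter and 1 to 3 with a library left out. In moc_3d minus moc_1d it was 1 as reported and 0 with all 16 columns.

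Among all genes, EtOH_1d minus moc_1d had 0 calls as reported, 2 by limma-voom, 28 without the filter, 16 in a fit of those 2 groups only, 2 with all 16 columns, 2 with the shared column kept as moc_1d replicate 1, 12 with the replicate block and 0 to 5 with a library left out. EtOH_3d minus moc_3d had 102 calls, 196 without the filter, 66 with 16 columns and 43 to 124 with a library left out. The mean of the responses had 95, 171 without the filter and 54 to 116. The difference of the responses had 8, 16 by DESeq2, 5 by limma-voom, 47 without the filter, 0 with 16 columns, 4 with the shared column kept as moc_1d replicate 1 and 1 to 23. The control pair moc_3d minus moc_1d had 155, 283 without the filter, 5 with 16 columns, 19 with the shared column kept as moc_1d replicate 1 and 67 to 158. EtOH_3d minus EtOH_1d had 185, 313 without the filter and 128 to 234. The cause of these shifts was not tested.

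Same-numbered libraries of ethanol and control did not deviate together (r between -0.08 and 0.03). With so few libraries this cannot tell whether libraries of the same number were grown or harvested together. With the replicate block the number of the 34 genes called was 3 in the mean of the responses and unchanged in the other comparisons. The mean over both durations could not be fitted on 2 groups only.

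PORA, LHCB4.3 and LHCB7 rest on 45 to 621 counts a library, and their intervals, with that of GUN4, are the widest of the 34 genes with ethanol at 3 d and 1 d.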
